A study of Mus musculus with 15 samples.

Results

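The genes Bmp2 and Bmp4 encode closely related bone morphogenetic proteins, and the data described here are the binding sites of osteoblast transcription factors in a stretch of chromosome around each of them. The stretches were fixed by position in the mouse genome build mm9: a 500 kb window from 133.2 to 133.7 Mb of chromosome 2, set around Bmp2 and its distal flank, and a 300 kb window from 46.85 to 47.15 Mb of chromosome 14, set around Bmp4. Every peak of the 12 deposited peak lists with its midpoint inside a window was taken, and peaks of all lists that shared at least 1 bp were merged into a site. This gave 14 sites in the Bmp2 window and 11 in the Bmp4 window, 25 of the 61108 merged sites of the whole series. An annotation of mm9 was not used here, so the positions of the sites relative to the exons, introns and starts of the genes are not given, and the placing of the genes within the windows was not checked. In the gene order of the GRCm38.p6 assembly the nearest protein-coding genes on either side are Fermt1 and Hao1 for Bmp2, and Ddhd1 and Cdkn3 for Bmp4.

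BMP2 and BMP4 are secreted ligands of the TGF-beta superfamily. They bind pairs of type I and type II serine/threonine kinase receptors, which phosphorylate the receptor-regulated Smad proteins, and in cells of the osteoblast lineage this signal raises the expression of Dlx5, Runx2 and Sp7. Both ligand genes are known to have enhancers far from their coding exons. The windows were set around the genes of ligands that induce osteoblasts. They were read for sites of tagged factors that include Sp7 and Dlx5, whose own genes the same signal induces.

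The 12 lists came from ChIP-seq with an antibody against the FLAG tag in mouse osteoblasts, and the other 3 of the 15 samples were input DNA, not analysed here. Primary calvarial osteoblasts of C57BL/6 pups at postnatal day 1 carried tagged Sp7 on both alleles (genotype Sp7-BioFL/BioFL, 2 libraries) or were wild-type (1 library, the antibody control). MC3T3-E1 cells, a mouse calvarial pre-osteoblast line at passages 5 to 10, gave 2 libraries each for tagged Sp7, Dlx5, Sp1 and a mutant named Sp7mut, and 1 library of a GFP control. All cell line groups, the GFP control included, had been kept for 1 week in osteogenic medium that contained recombinant human BMP-2 at 10 ng/ml, beta-glycerophosphate at 10 mM and ascorbic acid phosphate at 50 ug/ml. Sp7 (Osterix) is a zinc finger factor needed for osteoblast formation, Dlx5 is a homeodomain protein that takes part in skeletal development and recognises AT-rich DNA, and Sp1 is a ubiquitous zinc finger factor of GC-rich DNA. What was mutated in Sp7mut, and how the tagged proteins were expressed in the cell line, is not given in the sources used here.

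The 10 lists of tagged factors held between 2666 and 39749 peaks, and the controls 183 and 269. The lists carry positions without scores or read counts, so the depth behind a peak is unknown. The place of a peak in its list is given as a row percentile, its row number as a percentage of all rows, so that a low value stands near the start of the list. The rule behind the row order is not stated. Sites without a peak are sites that did not pass the authors' threshold in that library, which is not the same as sites that were not bound. The smallest p that 2 lists against 2 can reach in an exact permutation test, two-sided, is 0.333, so counts are described here without a test between factors. The labels do not say whether replicates were separate cultures or litters.

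Dlx5 accounted for nearly all of the sites at both loci. In the Bmp2 window 13 of the 14 sites held a Dlx5 peak in at least 1 replicate, and 4 of the 14 held one in both. In the Bmp4 window all 11 sites held a Dlx5 peak, and 7 of the 11 held one in both replicates. Over all merged sites of the series, 72.5% had a Dlx5 peak in at least 1 replicate and 39.2% had one in both, so that the share found in both was 28.6% at Bmp2, below the share over all sites, and 63.6% at Bmp4, above it. These shares rest on 14 and 11 sites. Neither control had a peak in either window, where 0.563% of all sites had one. Left without Dlx5 replicate 2, which has the longest list, the windows held 9 and 7 sites.

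Most of these Dlx5 sites were met by no other factor. A total of 11 of the 14 sites at Bmp2 and 9 of the 11 at Bmp4 were found in Dlx5 lists alone, against 37.6% of all merged sites. Sites shared by many lists were few. Peaks in at least 3 of the 10 tagged lists were present at 2 sites of each window, while 35.4% of all merged sites reached that number. The most widely shared site was found in 3 tagged lists at Bmp2 and in 4 at Bmp4, against a highest value of 10 over the genome.

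**Figure D1:**
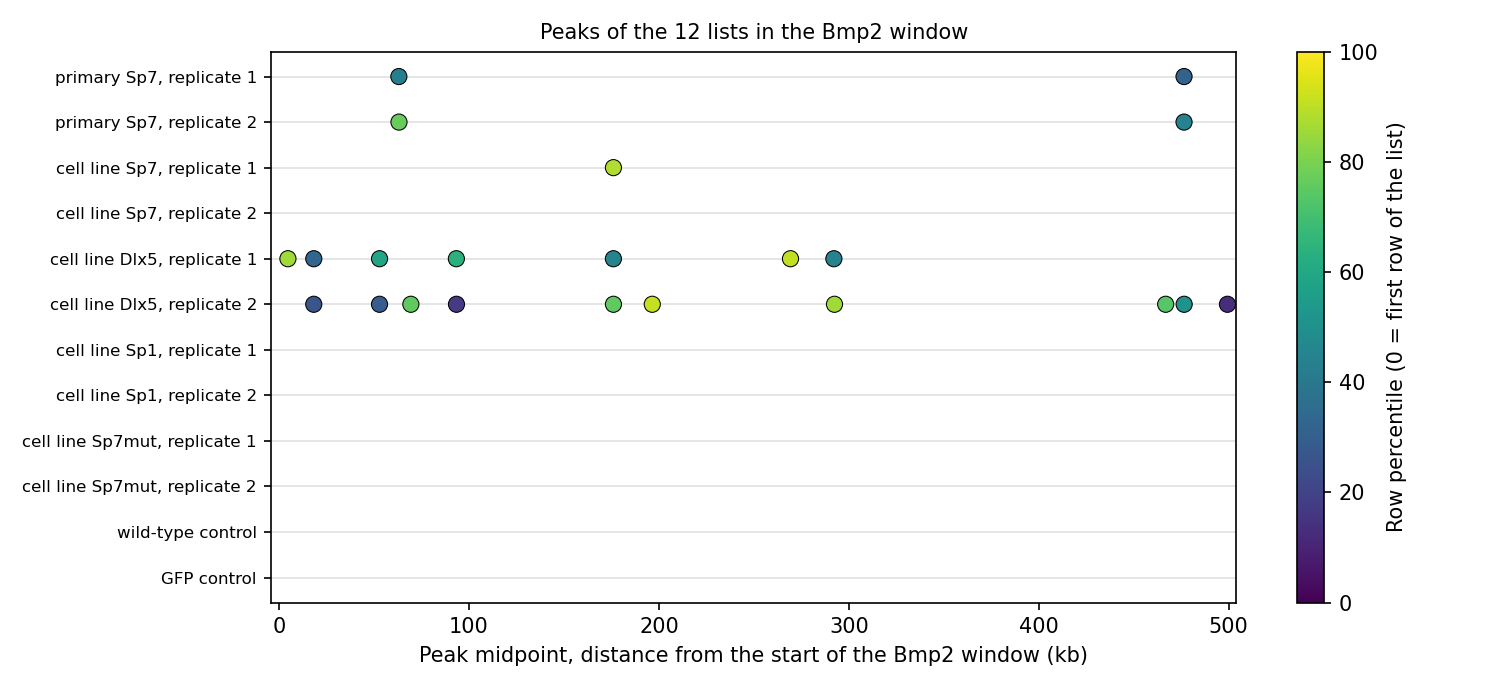
Peak midpoints in the Bmp2 window, as distance from the start of the window in kb (horizontal axis), with 1 line per peak list (vertical axis) and colour for the row percentile. Each point is 1 peak. The points lie mostly on the 2 Dlx5 lines, the primary Sp7 lists have 2 points each, and the Sp1, Sp7mut and control lines are empty.

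Read against the length of each list, Dlx5 peaks were denser around Bmp4 than over the genome on average. Dlx5 replicate 1 had 7 peaks in the Bmp4 window, or 23.3 peaks per Mb, and replicate 2 had 12, or 40.0 per Mb. Their averages over all stretches of 300 kb were 11.4 and 15.0 per Mb. Such counts were nonetheless common: 20.6% of the 8806 stretches held as many peaks of replicate 1 or more, and 13.2% as many of replicate 2. Around Bmp2 the lists held 7 and 10 peaks, or 14 and 20 per Mb, and 34.3% and 32.1% of the 5290 stretches of 500 kb held as many or more. The Dlx5 densities at Bmp2 were thus closer to the averages of their lists, 11.4 and 15.0 per Mb, than those at Bmp4.

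Sp7 itself had few peaks in the cell line. In the Bmp2 window cell line Sp7 replicate 1 had 1 peak and replicate 2 had 0, and in the Bmp4 window both had 0. No site of either window was found in both Sp7 replicates, a state reached by 8.54% of all merged sites. Over the genome 87.1% of the 5217 sites with Sp7 in both cell line replicates also had Dlx5 in both (95% Clopper-Pearson interval 86.2 to 88.0, which covers counting error only). No such share could be formed in the windows.

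A stretch without Sp7 was common over the genome. Of all stretches of 300 kb, 70.3% had no site in both cell line Sp7 replicates, and of those of 500 kb, 60.3% had none. Such stretches were a smaller part of those that held Dlx5 sites in the number seen here. Of the 290 stretches of 300 kb with exactly 7 sites in both Dlx5 replicates, as in the Bmp4 window, 59 (20.3%) had no site in both Sp7 replicates. Of the 273 stretches of 500 kb with exactly 4 such Dlx5 sites, as in the Bmp2 window, 130 (47.6%) had none.

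Sp1 and Sp7mut had few peaks in the windows too, and at Bmp4 such counts were common over the genome. Neither factor had a peak in the Bmp2 window in any of its 2 replicates. In the Bmp4 window Sp1 had 1 peak in replicate 1 and 2 in replicate 2, and Sp7mut had 0 and 1. Of all stretches of 300 kb, 40.0% and 43.9% held as many Sp1 peaks or more in these replicates. As many peaks of Sp7mut replicate 2 or more were held by 45.2%, and 59.1% had no peak of Sp7mut replicate 1. Their shares over all merged sites, counted in both replicates, were 15.1% for Sp1 and 13.9% for Sp7mut, against 1 of 11 and 0 of 11 sites at Bmp4. No Sp1 site in both replicates was present in 60.7% of all 300 kb stretches and 50.7% of all 500 kb stretches. For Sp7mut these shares were 61.8% and 52.0%. Of the 290 stretches with 7 Dlx5 sites in both replicates, 73 (25.2%) had no Sp1 site and 32 (11.03%) no Sp7mut site in both replicates. Of the 273 stretches with 4 such Dlx5 sites, as at Bmp2, 70 (25.6%) had no Sp1 site and 79 (28.9%) no Sp7mut site. Between 38.02% and 49.9% of all stretches of 500 kb were also without a peak of a given Sp1 or Sp7mut list.

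**Figure D2:**
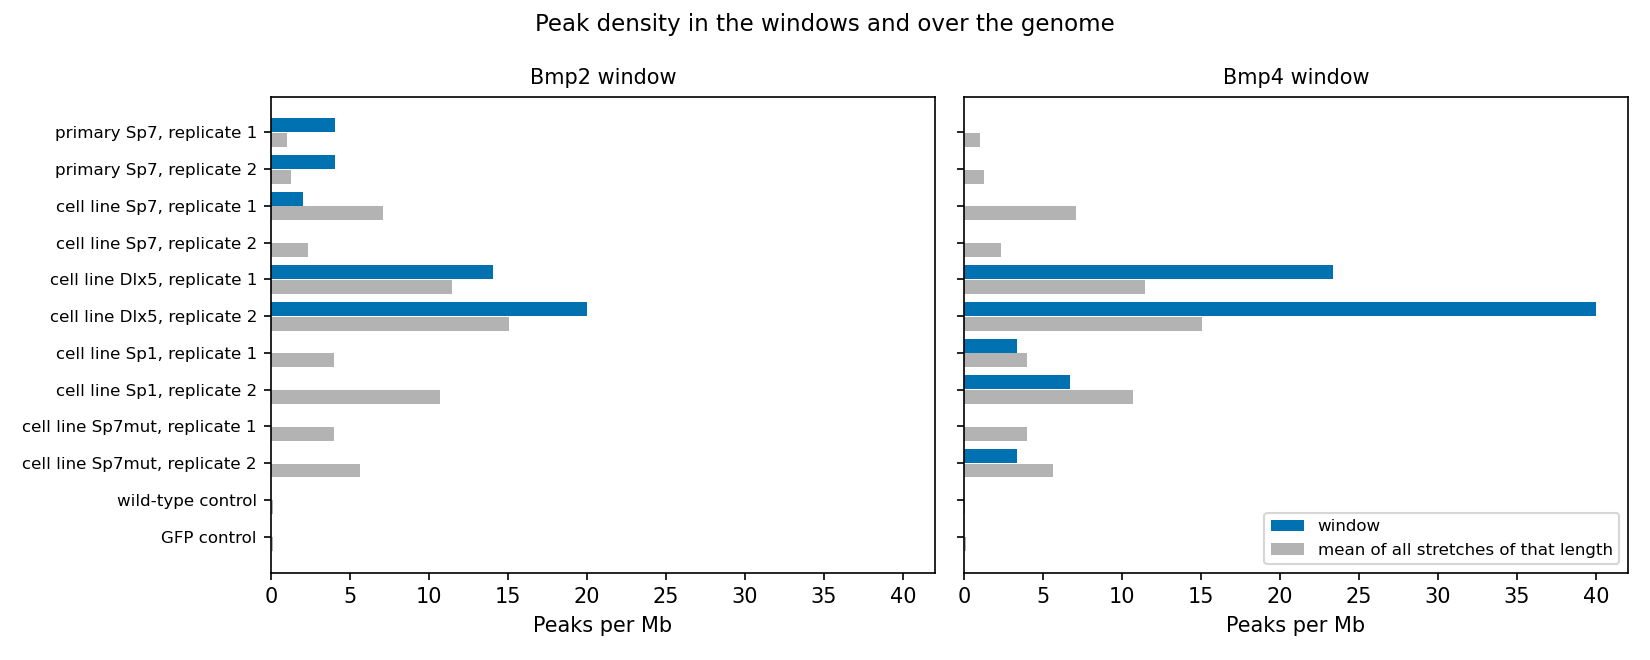
Peaks per Mb (horizontal axis) for each of the 12 lists (vertical axis), in the window (blue) and as the mean of all genome stretches of the same length (grey), for Bmp2 (left) and Bmp4 (right). Both Dlx5 lists exceed their mean in both windows, at 40.0 against 15.0 per Mb for replicate 2 at Bmp4, and the primary Sp7 lists exceed theirs at Bmp2 alone.

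In primary osteoblasts Sp7 had 2 sites in the 500 kb window of Bmp2 and 0 in the 300 kb window of Bmp4, a difference that was not tested. Each primary replicate had 2 Sp7 peaks in the Bmp2 window, and they formed the same 2 sites, where 3.58% of all merged sites had primary Sp7 in both replicates. This is 4 peaks per Mb, against averages of 1.01 and 1.21 over the 500 kb stretches, and 12.02% and 14.8% of the stretches held as many or more. The Bmp4 window had no primary Sp7 peak, which was also the case for 79.2% and 76.7% of all 300 kb stretches. Of the 290 stretches with 7 Dlx5 sites in both replicates, 169 (58.3%) had no site in both primary replicates. With the Bmp4 window extended by 50 kb on both sides it held 1 such site.

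The first of the primary Sp7 sites, chr2:133262947-133263306 (mm9), lay 63.1 kb into the Bmp2 window and was met by no cell line list. It stood at row percentile 42.6 in replicate 1 and 76.8 in replicate 2, and its peaks had midpoints 66 bp apart. Of the 2185 sites with Sp7 in both primary replicates over the genome, 310 (14.2%) had no peak of a tagged factor in the cell line. This site was the only one of the 14 without Dlx5. The nearest Dlx5 site, seen in replicate 2 alone, began 6.01 kb further on.

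The other primary site, chr2:133676410-133676669, lay near the far end of the window, at 476.5 kb. Its row percentiles were 31.1 and 44.1 in the primary lists, and a Dlx5 peak of replicate 2 stood there at 50.7. The primary peaks were centred within 1.5 bp of each other, and the Dlx5 peak 61.5 and 63 bp from them. A primary Sp7 site met in the cell line by Dlx5 replicate 2 and no other tagged list was found 243 times over the genome, 11.1% of the primary sites. By comparison 51.7% of the primary sites had a cell line Sp7 peak in at least 1 replicate, and neither of the 2 sites at Bmp2 did.

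The single cell line Sp7 peak of the Bmp2 window was in a site that both Dlx5 replicates shared. At chr2:133375932-133376166, 176 kb into the window, Dlx5 stood at row percentiles 45.0 and 75.7 and Sp7 replicate 1 at 88.1. The Sp7 peak was 88 bp wide, against a median of 164 bp in its list, and lay wholly within both Dlx5 peaks, with midpoints 20.5 and 11 bp away. It was thus a late and narrow peak of the longer Sp7 list. Of sites seen in Sp7 replicate 1 and not in replicate 2, 53.0% over the genome had Dlx5 in both replicates.

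The remaining Dlx5 sites of both replicates at Bmp2 lay between 18.3 and 93.4 kb into the window. At chr2:133218165-133218407 the row percentiles were 32.9 in replicate 1 and 26.4 in replicate 2, the earliest mean among the 4 sites of both replicates. At chr2:133252802-133253030 they were 58.7 and 29.2, and at chr2:133293287-133293516 they were 63.8 and 17.3. None of these 3 sites was near the start of both lists, and replicate 2 placed each of them earlier than replicate 1 did.

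Another 9 Dlx5 sites at Bmp2 were seen in 1 replicate. Replicate 1 alone had 3 of them and replicate 2 alone had 6. The first site of the window, chr2:133204652-133204682, was a peak of replicate 1 just 31 bp wide at row percentile 85.8. The last, chr2:133699268-133699412, stood at row percentile 12.98 of replicate 2 and was not found in replicate 1. Peaks that early were rarely missed elsewhere, since 93.5% of the peaks in the first 20% of replicate 2 met a peak of replicate 1 over the genome. In the middle of the window a peak of replicate 1 and one of replicate 2 lay 126 bp apart without touching and were counted as 2 sites. Joining peaks at most 200 bp apart, a setting chosen after seeing the data, gave 5 sites in both replicates in place of 4.

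The shares of Dlx5 peaks found again in the other replicate were lower at Bmp2 than at Bmp4, a difference on few peaks that was not tested. Of the peaks of replicate 1, 4 of 7 at Bmp2 (57.1%, 95% Clopper-Pearson interval 18.4 to 90.1) and 7 of 7 at Bmp4 (59.0 to 100%) met a peak of replicate 2, where the share over the genome was 80.0%. Of the peaks of replicate 2, 4 of 10 (40.0%, 12.2 to 73.8) and 8 of 12 (66.7%, 34.9 to 90.1) met replicate 1, where the genome gave 60.7%. The intervals of the loci overlapped, and each held the genome's share. They treat the peaks of a window as independent, and on so few peaks they are too wide to tell the loci apart. Peaks that met each other were counted in both directions. Among the 8 peaks of replicate 2 at Bmp4, an overlapping pair in 1 site met the same peak of replicate 1. The median row percentiles of the Dlx5 peaks were 58.7 in replicate 1 and 62.2 in replicate 2 at Bmp2, against 54.8 and 33.9 at Bmp4, so that the loci lay further apart in replicate 2. Over the genome the share of replicate 1 peaks that met replicate 2 was 97.2% for the first 20% of the list and 56.7% for the last. The part of row position in the difference between the loci was not tested.

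**Figure D3:**
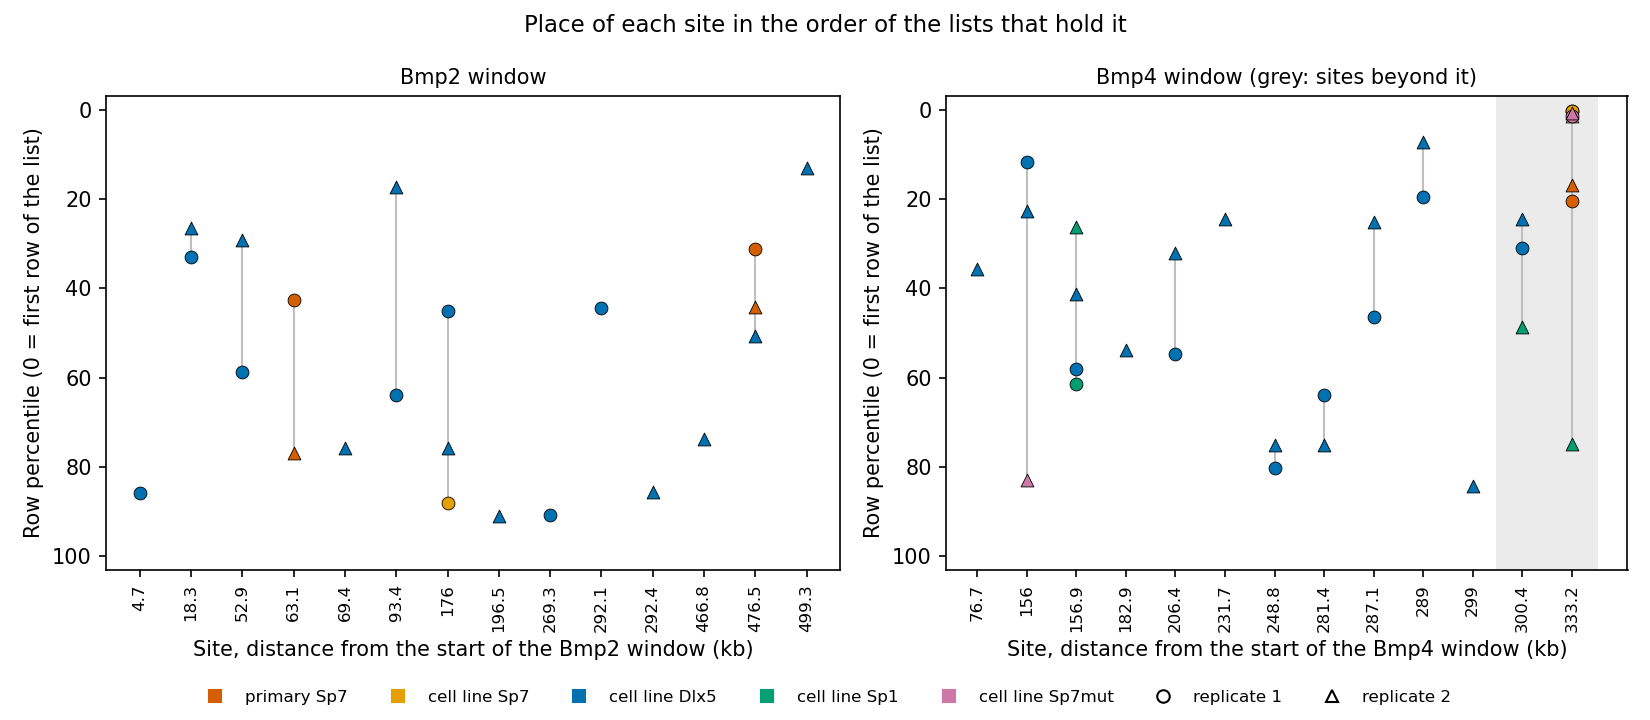
Row percentile (vertical axis, first row at the top) of every site in each list that holds it, for the Bmp2 window (left) and the Bmp4 window (right), with sites in chromosomal order and named by their distance from the window's start in kb. Colour marks the factor, shape the replicate, and a grey line joins the lists of a site. For a list with several peaks in a site, only the earliest is drawn. The shaded sites lie beyond the Bmp4 window and are those within 50 kb found in more than 2 tagged lists, and the site at 333.2 kb stands at a row percentile of 1.40 or lower in all 6 lists of cell line Sp7, Dlx5 and Sp7mut.

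At Bmp4, a pair of neighbouring sites in the middle of the window held all peaks of factors other than Dlx5. The first, chr14:47005621-47006313, 156 kb into the window, was 693 bp long and joined 4 overlapping peaks. Dlx5 stood there at row percentile 11.8 in replicate 1 and 22.7 in replicate 2, which had a further peak in the same site, and Sp7mut replicate 2 stood at 82.9. The Sp7mut peak was centred 34 bp from that of Dlx5 replicate 1. It was the only Sp7mut peak of the window and came late in its list.

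The second of the pair, chr14:47006606-47007174, began 292 bp further on. With peaks joined at 1 bp, it was the only site of either window with 2 factors in both replicates. Sp1 stood at row percentiles 61.5 and 26.3, and Dlx5 at 58.1 and 41.2. These 2 Sp1 peaks were centred 19.5 bp from each other, and 116 to 203 bp from the Dlx5 peaks. The parts they shared with a Dlx5 peak were 27 to 115 bp long. A further Sp1 peak of replicate 2, in the same merged site, came at row percentile 99.8, almost the last row of the list. It was centred 341 and 360.5 bp from the other Sp1 peaks and overlapped the Dlx5 peak of replicate 1 alone, by 71 bp. Of the 9249 sites with Sp1 in both replicates over the genome, 34.5% also had Dlx5 in both (95% Clopper-Pearson interval 33.5 to 35.5).

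The other Dlx5 sites found in both replicates at Bmp4 lay further along the window, at 206.4 to 289 kb, and held no other factor. The earliest in the lists was chr14:47138860-47139061, at row percentiles 19.6 and 7.26. Its neighbour chr14:47136970-47137232, which ended 1.63 kb before it, stood at 46.3 and 25.0. The site chr14:47056323-47056516 stood at 54.8 and 32.0, and chr14:47131261-47131527 at 63.9 and 75.2. Another, at 248.8 kb, stood at 80.2 and 75.2. These 5 sites thus ranged from early to late in both lists, and the replicates placed the peaks within 3.5 to 46 bp of each other.

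Sites of a single list at Bmp4 all came from Dlx5 replicate 2. There were 4 of them, from the first site of the window, chr14:46926656-46926775 at row percentile 35.7, to the last, chr14:47148892-47149163 at 84.3. The first lay 78.8 kb before its neighbour, the widest gap between sites in this window. At Bmp2 the widest gap was 174.2 kb, and it fell between the sites at 292.4 and 466.8 kb.

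**Figure D4:**
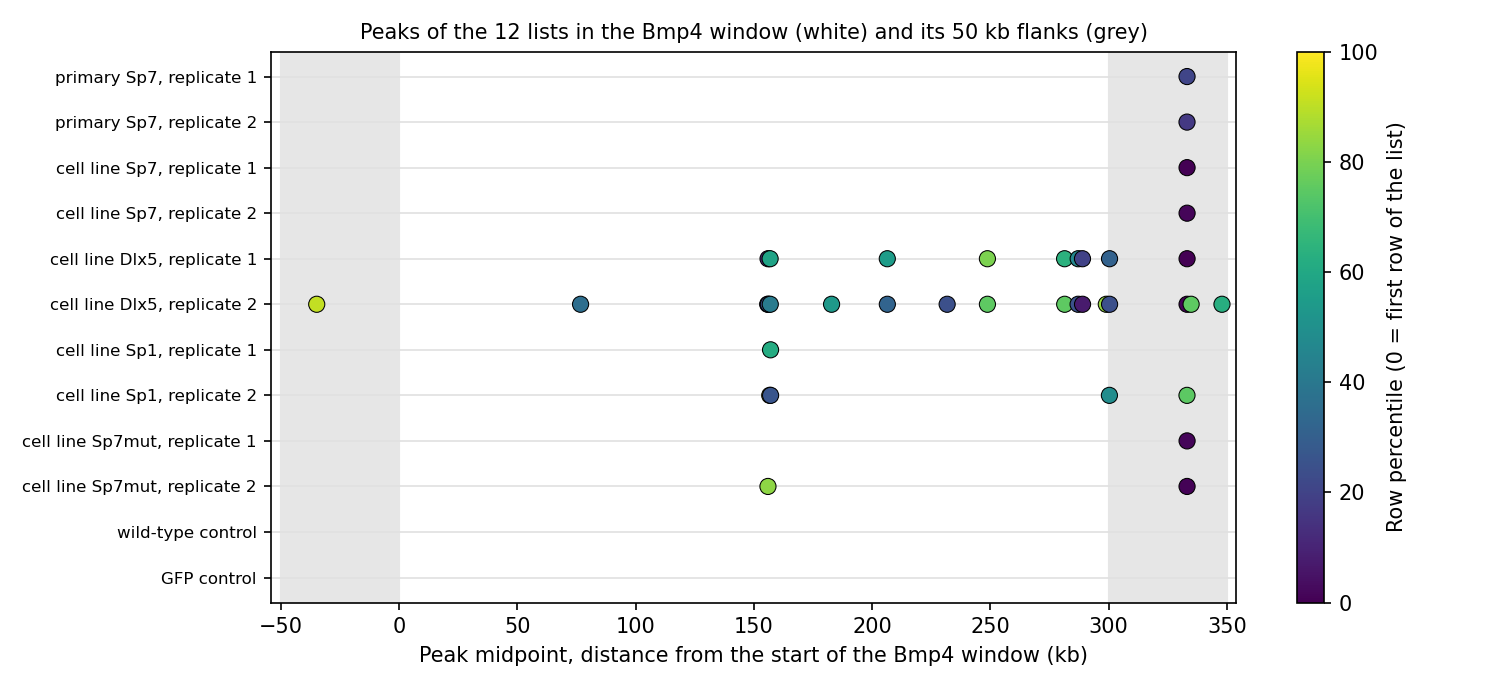
Peak midpoints in the Bmp4 window (white) and in 50 kb on either side of it (grey), as distance from the start of the window in kb (horizontal axis), with 1 line per peak list (vertical axis) and colour for the row percentile. Inside the window the points are mostly those of Dlx5, while at 333.2 kb, beyond it, 9 of the 10 tagged lists have a peak and both controls have none.

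The edge of the Bmp4 window left out a site shared by almost all lists. The site chr14:47183036-47183277 began 33.0 kb beyond the window and held peaks of 9 of the 10 tagged lists, all except Sp1 replicate 1, and of neither control. Over the genome 680 of the 61108 merged sites (1.11%) were met by 9 or more tagged lists. Cell line Sp7 stood there at row percentiles 0.252 and 1.40, at rows 47 and 85 of its lists. For Dlx5 the values were 0.284 and 0.473, and for Sp7mut 1.32 and 0.735. The site was thus among the first rows of all 6 of these lists. In primary osteoblasts Sp7 stood at 20.4 and 16.7, and Sp1 replicate 2, at 74.9, was late. The midpoints of Sp7, Dlx5 and Sp7mut in the cell line differed by at most 11 bp, and those of primary Sp7 lay 9 to 26 bp from them.

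This site was also the nearest one of Sp7 to the Bmp4 window in both cell systems. On the other side of the window the nearest peaks lay 236.5 and 668.4 kb away for cell line Sp7 and 668.4 kb away in both primary lists. Nearer the edge, the site chr14:47150242-47150517 began 0.241 kb beyond the window and held Dlx5 at row percentiles 31.0 and 24.4 and Sp1 replicate 2 at 48.7, while the last site inside held Dlx5 replicate 2 alone. With the window extended by 50 kb on both sides, Sp7 in primary cells, Sp7 in the cell line and Sp7mut each had 1 site in both replicates, where the window itself had 0. Counts of Sp7 sites at Bmp4 therefore rest on where the window ends.

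No such site bordered the Bmp2 window. The nearest peaks of cell line Sp7 lay 260.3 and 685.5 kb before it, and 340.6 and 340.7 kb after it. Both replicates thus had a peak at about the same distance beyond its end, at row percentiles 50.1 and 81.0. Extending this window by 50 kb added 1 site, a peak of Dlx5 replicate 1 at row percentile 94.6 that began 27.6 kb before the window's start.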

How the data were processed

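FLAG ChIP-seq peaks of mouse osteoblasts were analysed. Each of the 12 deposited lists holds 3 columns without a header, chromosome, start and end, and no other value. Positions are in mm9 according to the submitters' processing notes. Per the labels, lists were made per library against an input, with 1 input for the primary libraries, 1 for cell line Sp7 and Dlx5 and another for Sp1 and Sp7mut, so that factor and input cannot be told apart between these pairs. The input of the GFP control and the tools and thresholds of alignment and peak calling were not given in the sources used here. The 3 input samples were not analysed here.

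Groups and replicates follow the sample titles. The windows, the gene pair and the rules for sites were chosen with earlier results of these data known. Peaks joined when they shared at least 1 bp, and coordinates are printed 1-based. A site counted for a factor when it held a peak of both replicates. Each list was compared with itself over non-overlapping stretches of the window's length, from the start of each chromosome to the last peak of any list. Named sites were the 6 of each window in most tagged lists, ties broken by row percentile, the earliest of each factor, the first and last, those over control peaks (there were none) and those of primary Sp7. Sites beyond the windows were chosen after their values were seen. Alternatives were a 50% overlap of both peaks, the first or the wider 50% of each list, membership by any bp, windows longer by 50 kb on each side, control sites removed, shifted stretches and each replicate left out. The merging code was tested on simulated data. Motifs, sequences and the genes of the BMP pathway need mm9 sequence or annotation, which was not used here. The software was Python 3.11.15 with pandas 2.3.3, numpy 2.4.6, matplotlib 3.10.9 and scipy 1.17.1.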

Additional observations from a re-analysis of the deposited data

Results flagged for a closer look

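A signal appeared outside the windows that define the loci. The site chr14:47183036-47183277 (mm9), beyond the end of the Bmp4 window, held peaks of 9 of the 10 tagged lists and of neither control, more tagged lists than any of the 25 sites within the windows. Its gene neighbourhood in mm9 was not examined here.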

How the results depend on the processing

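The lists hold no scores, so a stricter threshold could be tried only through row order and width, and depth sets no limit that can be measured here. Keeping the first 50% of rows left 8 sites at Bmp2 and 7 at Bmp4, with 1 and 3 Dlx5 sites found in both replicates, 1 primary Sp7 site at Bmp2 and 0 Sp1 sites at Bmp4, as follows from fewer peaks. Keeping the wider 50% left 2 and 3 Dlx5 sites and 1 primary Sp7 site. With windows extended by 50 kb, primary Sp7, cell line Sp7 and Sp7mut each had 1 site at Bmp4, and the Sp7 site was also a Dlx5 site, for 1 Sp7 site with Dlx5 against 0. Among the first 50% of rows, the percentage of stretches with fewer peaks than the Bmp2 window was 61.9 and 63.2 for the Dlx5 replicates (65.7 and 67.9 over all rows), 95.1 and 79.1 for primary Sp7 (88.0 and 85.2) and 0 for cell line Sp7 replicate 1 (41.1). At Bmp4 it was 0 for Sp1 replicate 1 (59.97) and 0 for Sp7mut replicate 2 (54.8). Each list with a value of 0 had no peak left in that window. No stretch can hold fewer peaks than that, so this value was fixed by the cut and gives no rank.

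When 1 replicate was left out, a peak in the other sufficed for its factor. The Dlx5 sites then numbered 7 to 10 at Bmp2 and 7 to 11 at Bmp4, cell line Sp7 sites at Bmp2 0 to 1, as did those with Dlx5, and Sp7mut sites at Bmp4 0 to 1. All sites together numbered 9 to 14 at Bmp2 and 7 to 12 at Bmp4. A 50% overlap, membership by any bp, removal of control sites, joining of peaks at most 200 bp apart and shifted stretches left each count within 1.5 times its main value. The percentages of stretches stayed within the spread between replicates. The 50% overlap nonetheless changed which peaks shared a site. It gave 15 sites at Bmp2 and 15 at Bmp4, with 6 Dlx5 sites in both replicates at Bmp4 in place of 7. The cell line Sp7 peak at Bmp2 and the Sp1 peaks at Bmp4 then fell in sites apart from Dlx5. No paired analysis was possible because the results come from counts of peak positions and from no fitted test.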
